A study of Mus musculus with 30 samples.

Results

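Nphs1, Podxl, Wt1 and Synpo are 4 genes used as markers of podocytes, the epithelial cells that wrap the capillaries of the kidney glomerulus. They were followed here through RNA-seq counts of 5 mouse tissues. The members were the rows of the count tables whose gene identifier carried 1 of these 4 symbols, which found 4 of the 48709 gene entries. The study compared adult C57BL/6 mice of control genotype (wild type, WT) with mice labelled as Ctcf haploinsufficient (Ctcf+/-), which keep 1 functional copy of Ctcf. Its product is a DNA-binding zinc-finger protein with a role in folding chromatin into loops. Brain, kidney, liver, muscle (quadriceps femoris) and spleen were taken, with 3 WT and 3 Ctcf+/- libraries per tissue and 30 libraries in all. How the Ctcf allele was made, the sex of the mice and their age beyond adult are not given in the sources used here, nor is whether libraries with the same number came from the same mouse.

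Podocytes extend interlocking foot processes over the outside of the glomerular capillaries. Between neighbouring foot processes lies the slit diaphragm, a sheet of adhesion proteins that forms the last layer of the blood filter. Nphs1 encodes nephrin, the adhesion protein of the immunoglobulin superfamily that spans this slit. Podxl encodes podocalyxin, a negatively charged sialomucin of the apical podocyte surface that is also made by vascular endothelium. Wt1 encodes a zinc-finger transcription factor that podocytes keep for life and that mesothelium also makes. Synpo encodes synaptopodin, an actin-associated protein of foot processes and of the dendritic spines of neurons.

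Libraries held 49.8 M to 131.6 M counts, and the tissue medians were 70.6 M (brain), 93.3 M (kidney), 66.8 M (liver), 97.0 M (muscle) and 87.4 M (spleen). A count of 0 allows up to 3 counts, which came to 0.0229 to 0.0606 CPM (counts scaled to library size, the unit of all levels below, after TMM scaling) over the brain libraries and to 0.0288 to 0.0345 CPM over the muscle libraries, counting error only. Tissue labels fitted their defining markers: summed levels of 3 neuronal markers reached 4812 CPM in brain, those of 5 proximal tubule markers 23460 CPM in kidney and those of 3 muscle fibre markers 121500 CPM in muscle. RNA of other organs was present in some libraries, and its values are given beside several of the genotype comparisons. Ctcf itself had a kidney level of 60.01 ± 3.36 CPM in WT and 36.83 ± 3.51 CPM in Ctcf+/- libraries (SD, n = 3 each). Its log2 fold change in kidney was -0.70, with an edgeR adjusted p of 0.107, or 0.044 with the replicate number as a block. Ctcf was lower without overlap of the groups in each of the 5 tissues, a separation shared by 4.10% (brain), 5.28% (kidney), 4.31% (liver), 6.28% (muscle) and 2.29% (spleen) of the genes tested.

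Nphs1 and Wt1 each begin head to head with another gene. Kirrel2, which encodes a nephrin relative of the slit diaphragm, runs on the opposite strand and its gene model begins 624 bases from the first exon of Nphs1. Wt1os, a long noncoding RNA antisense to the Wt1 region, starts 18 bases from Wt1. These stretches are shown because the paired genes are compared below. The first is given on the plus strand of chr2:105126505-105126534, while Wt1os is read on the minus strand. It runs from the bases at the start of Wt1os through the 18 bases that separate the models (in capitals) to the first bases of Wt1. The second, on the minus strand of chr7:30457691-30457765, is the exon-free stretch directly upstream of the Kirrel2 model, inside the interval between Kirrel2 and Nphs1. Both were read from RefSeq promoter windows on GRCm38.p6, where 1 of the 4 members had a window.
Wt1os to Wt1: tttgctGAGCTAGGCTAGGGCTGCtgtgtg
Kirrel2 upstream: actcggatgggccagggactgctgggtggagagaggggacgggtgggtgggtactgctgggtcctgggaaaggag

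The 4 genes lie on 4 chromosomes of GRCm38, the build of the counted annotation. Nphs1 (ENSMUSG00000006649) spans chromosome 7, 30458315 to 30487223, on the plus strand, with 6620 bp of exons. It shares exon bases with the antisense Nphs1os (597 bases) and the pseudogene Rps12-ps4 (183 bases). Counting did not use strand and left out fragments that overlapped several genes, so fragments within these bases were lost to Nphs1. Nphs1os had 0 counts in every kidney library and Rps12-ps4 had 8 to 30. Podxl (ENSMUSG00000025608) spans chromosome 6, 31519488 to 31563981, on the minus strand, with 5488 bp of exons, and Mkln1 ends 2676 bases away. Wt1 (ENSMUSG00000016458) spans chromosome 2, 105126529 to 105173616, on the plus strand, with 6195 bp of exons. Synpo (ENSMUSG00000043079) spans chromosome 18, 60593973 to 60660142, on the minus strand, with 9533 bp of exons, and Myoz3 lies 2184 bases away.

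In WT mice, Nphs1 and Wt1 were highest in kidney, Podxl was high in both kidney and muscle, and Synpo was highest in muscle and brain. Levels between tissues are CPM on a scale set over the 15 WT libraries. The Nphs1 level in kidney was 10.91, 10.46 and 7.451 CPM in WT libraries 1 to 3. In brain it was 1.325, 1.195 and 1.427 CPM, clear of the kidney range. Nphs1 was close to absent elsewhere, with at most 1 count in any liver library, 3 in any muscle library and 4 in any spleen library. Summed over 3 libraries, kidney exceeded liver by a ratio of 594 (95% exact interval 164 to 4910, from 2 liver counts) and muscle by 555 (190 to 2690, from 3 muscle counts). Brain exceeded liver, muscle and spleen, while these 3 tissues did not differ among themselves beyond their spread.

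Wt1 was also highest in kidney, with levels of 4.722, 5.301 and 3.525 CPM there. Liver came next at 1.02, 0.316 and 0.7591 CPM, and its libraries held 12 to 45 counts. Brain, muscle and spleen held 1 to 11 counts per library, and means of 0.0907, 0.0751 and 0.0627 CPM that did not differ beyond their spread. Kidney exceeded liver by a fitted 6.41-fold (log2 fold change 2.68, SE 0.45, edgeR adjusted p = 0.000131).

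Podxl reached the highest kidney level of the 4 genes, with 109.2, 122.6 and 111.8 CPM. In muscle it was 84.84, 116.2 and 69.5 CPM, so the ranges overlapped. The log2 difference of kidney over muscle was 0.34 (SE 0.23, edgeR adjusted p = 0.21). With libraries scaled by total counts in place of TMM this difference became 1.51 with an adjusted p of 4.95e-05. That scaling also moved the median log2 difference of all 22933 genes between these tissues from 0.22 to 1.38, so the Podxl difference lay near the median of all genes under either scaling. Brain followed at 17.44 ± 2.08 CPM, liver at 9.758 ± 1.51 and spleen at 0.5593 ± 0.25 (SD, n = 3 each), and each of these steps passed the test.

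Synpo ran in another order. In muscle it was 343.6, 273.6 and 195.2 CPM, and in brain 136.2, 187.2 and 143.8 CPM, against 25.92, 33.33 and 25.13 CPM in kidney. Kidney was lower than muscle by a log2 difference of -3.27 (SE 0.25, edgeR adjusted p = 3.27e-08) and lower than brain by -2.47 (SE 0.24, adjusted p = 3.77e-07). Liver, at 12.32 ± 2.92 CPM, and spleen, at 0.9174 ± 0.202 CPM (SD, n = 3 each), were below kidney. In whole-tissue RNA, fewer cells of a type and less RNA per cell cannot be told apart.

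**Figure D1:**
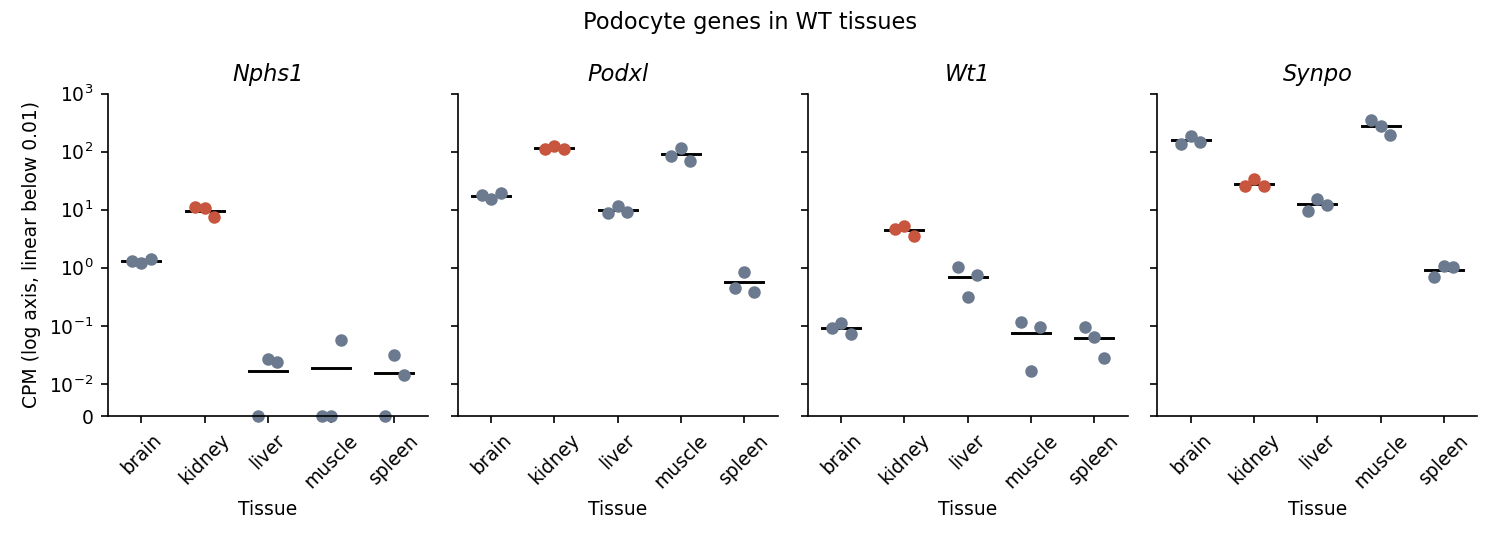
Level of each of the 4 genes in the 15 WT libraries, in CPM on a log axis that is linear below 0.01; points are libraries and bars are means of 3. Nphs1 and Wt1 are highest in kidney (9.604 and 4.516 CPM), Podxl overlaps between kidney and muscle, and Synpo is highest in muscle (270.8 CPM).

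Per kb of exon, which allows genes to be compared, the WT kidney levels were 20.9 ± 1.3 CPM per kb for Podxl, 2.95 ± 0.474 for Synpo, 1.45 ± 0.284 for Nphs1 and 0.729 ± 0.146 for Wt1 (SD, n = 3 each). Podxl thus stood well above the other members in kidney on this scale, and the ranges of the 4 genes followed this order. Against brain, 3 members were called higher in kidney and 1, Synpo, lower, where 36.0% of the 22933 genes tested were called higher in kidney and 71.4% in either direction. Against liver and spleen all 4 were called higher, against 29.4% and 39.2% of all genes (54.1% and 75.5% in either direction). Against muscle, Nphs1 and Wt1 were called higher, against 35.9% of all genes (64.4% in either direction), and Synpo lower. These 4 comparisons share the kidney libraries.

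The 52 further podocyte genes counted here and below include 4 family relatives of the members, listed as relatives and not as podocyte markers. Of the 52, 41 were called higher in kidney than spleen, 37 than liver, 32 than brain and 28 than muscle, beside the shares of all genes given above. Called lower were 5 against spleen, 6 against liver, 14 against brain and 15 against muscle, where 36.3%, 24.7%, 35.5% and 28.5% of all genes were. Among 13 slit diaphragm genes, 4 were called higher in kidney than brain, 8 than liver, 7 than spleen and 6 than muscle. Of all genes, 36.0%, 29.4%, 39.2% and 35.9% were called higher in that order. Lower in kidney were 7 of the 13 against brain, 1 against liver, 1 against spleen and 2 against muscle. The shares of all genes were 35.5%, 24.7%, 36.3% and 28.5%. Cd2ap, an adaptor between the slit and actin, had 16 CPM per kb in kidney and 13.6 in spleen. Kirrel2, unlike its neighbour Nphs1, was higher in brain than kidney, with 1.83 CPM per kb in brain and 0.0185 in kidney.

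Among the other lists, 9 of 10 genes of the glomerular basement membrane and its receptors were called higher in kidney than brain, 9 than liver, 10 than spleen and 6 than muscle, beside 36.0%, 29.4%, 39.2% and 35.9% of all genes. Against muscle, 3 of them were called lower in kidney, namely the laminin chains Lamb2 (-2.50 on the log2 scale) and Lamc1 (-1.38) and the tetraspanin Cd151 (-0.31), named after their values were seen. Col4a3, a collagen chain of this membrane, had 22 CPM per kb in kidney, 92.1 times the next tissue. Of the 10 cytoskeleton genes, Ezr, which links podocalyxin to actin, was the most abundant in kidney at 121 CPM per kb, with 87.9 in spleen, and Arhgap24, a regulator of Rac, was 9.35 times the next tissue. Tcf21, a transcription factor of podocytes and kidney stroma, had 27.6 CPM per kb in kidney and 8.22 in liver. Npnt, a ligand of integrin in the matrix, had 57.1 CPM per kb in kidney and 3.33 in brain. The 4 family relatives were all called lower in kidney than muscle, and Cd34, the closest relative of podocalyxin, had 4.54 CPM per kb in kidney and 9.95 in muscle.

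The genes whose log2 CPM followed each member most closely over the 30 libraries were found among 13715 genes with at least 1 CPM in WT kidney. These correlations mostly reflect differences between tissues, which the libraries share, and are a description. For Nphs1 they were Sptlc3 (r = 0.978), Gm17750 (0.977) and D630023F18Rik (0.975). For Podxl they were Mgp (0.982), Fbln7 (0.981) and Bcam (0.979). For Wt1 they were Slc22a14 (0.938), Slc25a17 (0.938) and 4930442L01Rik (0.933). For Synpo they were Eml1 (0.989), Pknox2 (0.988) and Rgma (0.985), each of which was also highest in muscle. No gene was among the closest 3 of more than 1 member.

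Between genotypes, the 4 podocyte genes lay in the same direction in kidney: in each of them every Ctcf+/- library exceeded every WT library, by fitted folds of 1.26 to 1.55. Such a separation was found for 6.15% of the 18937 genes tested in kidney. None of the 4 passed the edgeR quasi-likelihood test after adjustment over all genes, where 0.0211% of genes were called. At an unadjusted p under 0.05 all 4 were higher, against 4.0% of all genes. DESeq2, limma-voom and edgeR with the replicate number as a block also called 0 of the 4. The block called 0.111% of all genes. Its edgeR adjusted p-values were 0.132 for Nphs1, 0.287 for Podxl, 0.157 for Wt1 and 0.0776 for Synpo. Levels within a tissue are CPM scaled over its 6 libraries.

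Nephrin RNA (Nphs1) was 14.32, 13.57 and 9.663 CPM in WT kidney libraries 1 to 3 and 18.28, 19.72 and 15.4 CPM in the Ctcf+/- libraries. The lowest Ctcf+/- library was just above the highest WT library, and WT library 3 was lowest of all. Ctcf+/- over WT gave a log2 fold change of 0.51 (SE 0.16, edgeR adjusted p = 0.595). Synpo was 34.03, 43.27 and 32.59 CPM in WT and 46.58, 64.07 and 46.49 CPM in Ctcf+/- libraries, a log2 fold change of 0.52 (SE 0.16, edgeR adjusted p = 0.531). Here library 2 was the highest of both genotypes.

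Podxl was 143.3, 159.1 and 144.9 CPM in WT and 174.7, 212.7 and 175.7 CPM in Ctcf+/- kidney. Its difference was the smallest of the 4, with a log2 fold change of 0.33 (SE 0.10, edgeR adjusted p = 0.572). Wt1 was 6.2, 6.883 and 4.572 CPM in WT and 8.13, 11.99 and 7.307 CPM in Ctcf+/- kidney. Its fold was the largest and the least precise, with a log2 fold change of 0.63 (SE 0.22, edgeR adjusted p = 0.635). Wt1os, its head-to-head neighbour, was 0.4283 ± 0.0653 CPM in WT and 0.6699 ± 0.0641 in Ctcf+/- kidney (SD, n = 3 each). Its groups also did not overlap, as for 6.15% of all genes, with a log2 fold change of 0.64 (edgeR adjusted p = 0.682). Kirrel2, next to Nphs1, had 6 to 11 counts in WT and 12 to 20 in Ctcf+/- kidney and a log2 fold change of 0.78 (SE 0.44, edgeR adjusted p = 0.891). Other neighbours did not share this separation. Rps12-ps4, which shares exon bases with Nphs1, had overlapping groups and a log2 fold change of 0.57 (SE 0.48). Groups also overlapped for Prodh2, 6398 bases from Nphs1 (0.03), and for Mkln1 (-0.03). Myoz3 and the 4 small models beside Wt1 (Gm27715, Gm27538, Gm27636 and Gm27308) held at most 3 counts in any kidney library.

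**Figure D2:**
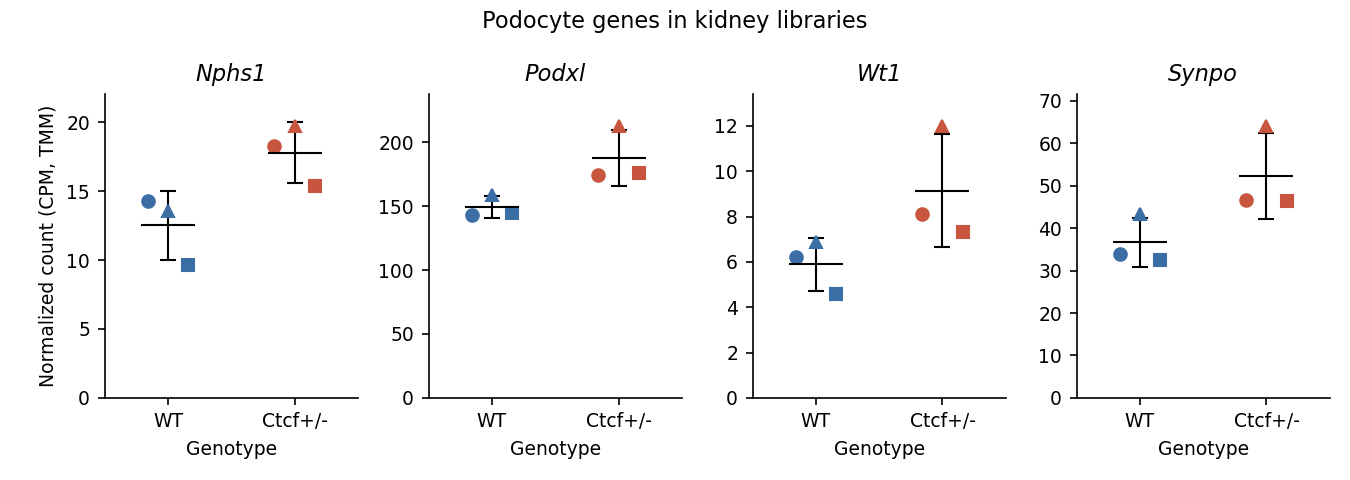
Level of each gene in the 6 kidney libraries, in CPM on axes that start at 0, by genotype; circles, triangles and squares are replicates 1, 2 and 3, and bars are the mean and SD. Every Ctcf+/- library lies above every WT library of the same gene, and Ctcf+/- library 2 is the highest in all 4.

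Ctcf+/- kidney library 2 carried the highest value of all 4 genes. Without it the Ctcf+/- libraries still did not overlap the WT libraries for any of the 4 genes, where 9.51% of all genes were then separated in this direction. The log2 fold changes without it were 0.43 for Nphs1, 0.23 for Podxl, 0.39 for Wt1 and 0.34 for Synpo. The differences of Wt1 and Synpo thus moved by over 1.5 times with this 1 library.

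Variation between kidney libraries of the same genotype was described by the correlation of deviations from the genotype means on the log2 CPM scale. No correlation is given over the pooled 6 libraries, since the genotype groups did not overlap, and none is tested, since a genotype has 3 libraries. Over the 6 deviations r was 0.968 for Podxl with Synpo, 0.904 for Wt1 with Synpo, 0.851 for Podxl with Wt1 and 0.846 for Nphs1 with Wt1. The remaining pairs had 0.573 for Nphs1 with Synpo and 0.443 for Nphs1 with Podxl. The deviations share their libraries and depth, and same-numbered libraries of the 2 genotypes deviated together over all genes.

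**Figure D3:**
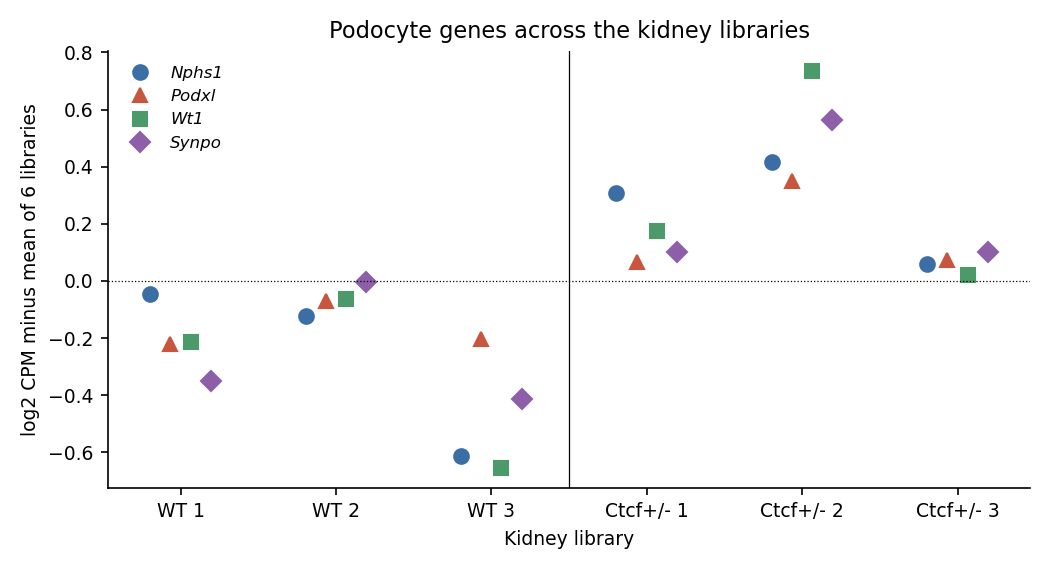
Deviation of each gene from its own mean over the 6 kidney libraries, on the log2 CPM scale, with WT libraries left of the line and Ctcf+/- libraries right of it. All Ctcf+/- values lie above 0 and all WT values lie below it, and Ctcf+/- library 2 stands highest for every gene.

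Of the 52 further podocyte genes tested for genotype in kidney, the 4 family relatives included, edgeR called 0. At an unadjusted p under 0.05, 8 were higher and 1 lower, against 4.0% and 2.44% of all genes. In turn, limma-voom called 0, and DESeq2, which called 0.586% of all genes higher, called 2, Ptpro (adjusted p = 0.0185) and Podxl2 (adjusted p = 0.0153), both higher. In all, 34 had a log2 fold change above 0 (65.4%, against 50.1% of all genes tested), and the median was 0.10, against 0.00 for all genes. The Ctcf+/- group was higher without overlap for 11 of them and lower for 1, against 6.15% and 5.28% of all genes. Without Ctcf+/- library 2 these counts were again 11 and 1, while the shares of all genes rose to 9.51% and 8.67%.

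Genes of the slit diaphragm supplied 5 of these 11. Ptpro, a receptor phosphatase of podocytes, was 8.427 ± 0.922 CPM in WT and 12.56 ± 1.62 in Ctcf+/- kidney, with a log2 fold change of 0.58 (edgeR adjusted p = 0.401). Kirrel2 was also among them, as were Crb2 (log2 fold change 0.57) and Nck2 (0.10), named after their values were seen. Cd2ap was among the genes that went the other way, with 112.4 ± 10.7 and 93.82 ± 5.59 CPM (SD, n = 3 each) and a log2 fold change of -0.26 (edgeR adjusted p = 0.663). Log2 fold changes of the 13 genes ran from -0.39 to 0.78, with a median of 0.18. Above 0 were 9 of them, beside 50.1% of all genes.

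Among 7 podocyte transcription factors, 3 were higher without overlap, where 6.15% of all genes were. They included Lmx1b (log2 fold change 0.50) and Foxd1 (0.60), named after their values were seen. Tcf21 was at 43.96 ± 8.34 and 44.29 ± 9.58 CPM. Nes, encoding the intermediate filament nestin, was the 1 separated gene of 8 surface and secreted genes (log2 fold change 0.36), while Npnt was at 373.8 ± 55.8 and 346.8 ± 28.8 CPM. Of 10 cytoskeleton genes, Rhpn1 alone was separated (0.20), and Ezr, at 519 ± 15.1 and 516 ± 21.5 CPM, and Arhgap24, at 257.8 ± 17.9 and 264.7 ± 28.5 CPM, differed by less than their spread.

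Genes of the glomerular basement membrane and its receptors had a median log2 fold change of -0.06, with 0 of 10 separated in either direction. Col4a3 was 286.1 ± 46.3 CPM in WT and 246.6 ± 63 in Ctcf+/- kidney, and Col4a4, its partner chain, had a log2 fold change of -0.25 (edgeR adjusted p = 0.799). Itgb1, the common integrin subunit, was 341.5 ± 24.2 and 341.7 ± 13.3 CPM. Among the family relatives, Podxl2, encoding endoglycan, had 3.527 ± 0.648 CPM in WT and 5.984 ± 1 in Ctcf+/- kidney, a log2 fold change of 0.76 (edgeR adjusted p = 0.422), while Cd34 had 0.19.

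**Figure D4:**
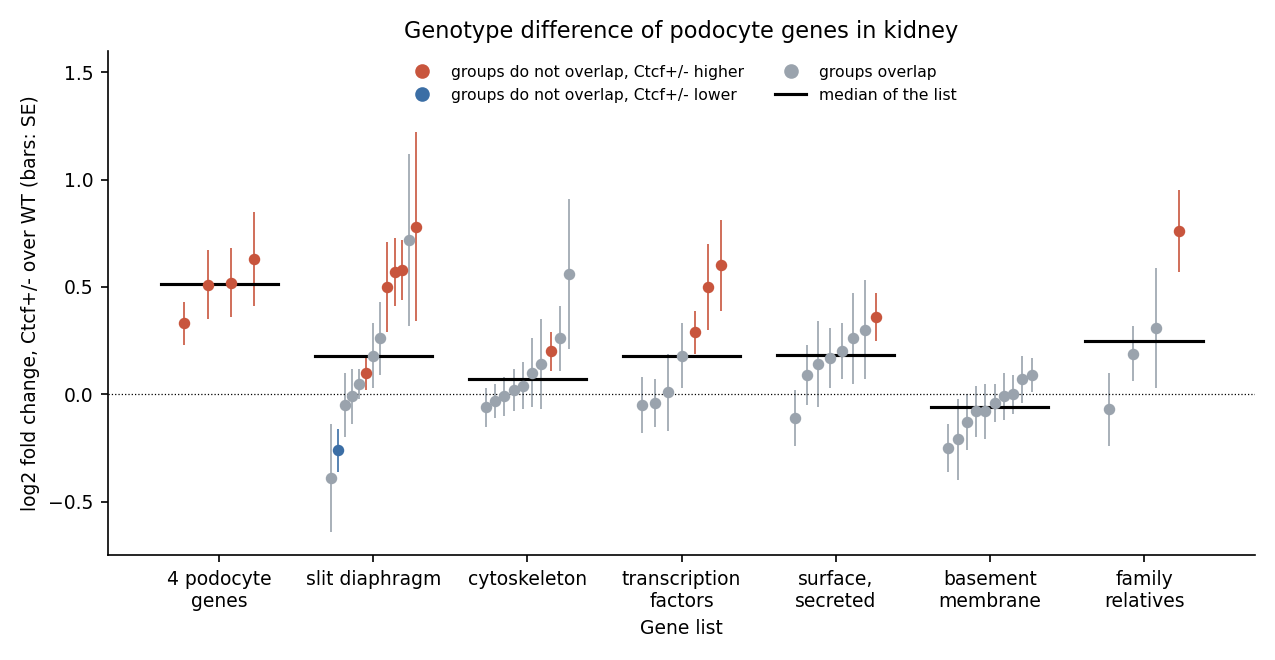
Fitted log2 fold change of Ctcf+/- over WT kidney with its SE for the 4 genes and the 52 further podocyte genes by list; the black bars are list medians. All 4 genes lie above 0. Higher without overlap are 5 of 13 slit diaphragm genes and 0 of 10 basement membrane genes, beside 6.15% of all genes. None of the genes shown passed the edgeR adjusted test.

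Markers of other kidney cells gave these values beside the podocyte genes. Of all genes tested in kidney, 6.15% were higher and 5.28% lower without overlap. Of 6 endothelial genes 0 were separated, with summed levels of 504.9 to 632.6 CPM in WT and 499.3 to 651.5 in Ctcf+/- kidney. Of 4 mesangial and juxtaglomerular genes 1 was separated, Ren1, the gene of renin, with a log2 fold change of 0.67 (edgeR adjusted p = 0.449), and their sum ran from 136.4 to 165 CPM in WT and 171.4 to 227.7 CPM in Ctcf+/- libraries. Of 5 proximal tubule genes 0 were separated, with sums of 20450 to 21920 and 17860 to 23460 CPM. The 5 distal tubule and collecting duct genes summed to 1720 to 1756 CPM in WT and 1889 to 2339 CPM in Ctcf+/- libraries. Only 1 of them was separated, Calb1, a calcium-binding protein of the distal tubule, with a log2 fold change of 0.76 (edgeR adjusted p = 0.158). Slc12a3 (0.06), Aqp2 (0.26), Scnn1g (0.08) and Atp6v1g3 (-0.05) overlapped between the groups. The 4 mesothelial genes, relevant for Wt1, summed to 32.27 to 41.91 CPM in WT and 25.52 to 34.54 CPM in Ctcf+/- libraries, and they went different ways. Krt19, the most abundant of them, was 22.29 ± 2.7 CPM in WT and 13.19 ± 2.09 in Ctcf+/- kidney (SD, n = 3 each, log2 fold change -0.76), lower without overlap. Msln (0.00) and Upk3b (0.13) overlapped, and Lrrn4 was higher without overlap (0.85). The edgeR test called none of the 4.

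RNA of neighbouring organs also differed between kidney libraries. The 3 adrenal cortex genes summed to 4.207 to 4.429 CPM in WT libraries and to 4.667, 23.83 and 37.61 CPM in Ctcf+/- libraries 1 to 3. The 3 hepatocyte genes summed to 254.2 CPM in Ctcf+/- library 3. Muscle fibre genes summed to 106.1 CPM in WT library 3 and 129.4 CPM in Ctcf+/- library 3, and to at most 0.1802 CPM in the other kidney libraries. The 3 vascular smooth muscle genes summed to 73.87, 118.9 and 73.23 CPM in WT and to 82.88, 127.1 and 116.3 CPM in Ctcf+/- kidney, so that library 2 was the highest of each genotype, as it was for Synpo, Podxl and Wt1. Their part in the podocyte gene values was not tested.

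Outside kidney, edgeR called none of the tested members for genotype, and none had an unadjusted p under 0.05. Tested were 3 members in brain, 3 in liver, 2 in muscle and 3 in spleen. Among all genes tested, 0.0157% were called in brain, 0.0193% in liver, 0.0249% in muscle and 0.242% in spleen. By the unadjusted rule, 1.39% of genes were higher and 1.57% lower in brain, 2.48% and 2.08% in liver, 3.67% and 2.78% in muscle and 2.55% and 0.972% in spleen. DESeq2 and limma-voom called none of the members in these tissues either. No member was higher without overlap in brain or muscle, where 3.73% and 5.91% of all genes were.

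In brain, Nphs1 was 1.86, 1.651 and 1.999 CPM in WT and 1.448, 1.666 and 1.387 CPM in Ctcf+/- libraries, a log2 fold change of -0.28 (SE 0.15, edgeR adjusted p = 1) with 1 Ctcf+/- library inside the WT range. Synpo, abundant there, was 191.2, 258.6 and 201.5 CPM in WT and 232.9, 255.1 and 208.4 CPM in Ctcf+/- brain, and its groups overlapped throughout (log2 fold change 0.10, SE 0.12). Synpo2, a relative of Synpo named after its values were seen, was 21.49 ± 0.556 CPM in WT and 30.53 ± 0.86 CPM in Ctcf+/- brain (SD, n = 3 each), a log2 fold change of 0.51 with an edgeR adjusted p of 0.169, or 0.00763 with the replicate block, which called 0.115% of brain genes. Podxl differed by 0.04 (SE 0.10), and Wt1, with 5 to 15 counts per brain library, was below the filter.

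In muscle, where Synpo is most abundant, it was 201.5, 157.7 and 114.1 CPM in WT and 160.6, 144.6 and 110.3 CPM in Ctcf+/- libraries. Its log2 fold change was -0.19 (SE 0.22) and that of Podxl -0.31 (SE 0.20), with overlapping groups for both. The Podxl value was -0.10 without WT library 2, -0.20 without Ctcf+/- library 1 and -0.47 without Ctcf+/- library 2. Podxl was 49.75, 66.98 and 40.61 CPM in WT and 36.03, 50.62 and 40.23 CPM in Ctcf+/- muscle. WT muscle library 2, the highest for Podxl, also held proximal tubule RNA, with summed markers of 60.54 CPM against at most 8.532 CPM in the other muscle libraries. Its part in the Podxl value was not tested. Nphs1 had 0 counts in all 3 Ctcf+/- muscle libraries.

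In liver, Wt1 was 0.6642, 0.2087 and 0.5242 CPM in WT and 0.7308, 0.7275 and 0.9609 CPM in Ctcf+/- libraries. These groups did not overlap, as for 4.68% of all genes in this direction, with a log2 fold change of 0.78 (SE 0.42, edgeR adjusted p = 1) that was 0.43 without WT library 2. Mesothelial markers summed to 8.457, 12.17 and 9.632 CPM in WT liver and to 11.02, 17.21 and 30.34 CPM in Ctcf+/- liver, with Ctcf+/- library 3 highest for both. Their part in the Wt1 value was not tested. Podxl had a log2 fold change of -0.43 (SE 0.22) in liver, or -0.23 without Ctcf+/- library 2, beside endothelial markers that summed to 228.7 to 271.7 CPM in WT and 174.3 to 203 CPM in Ctcf+/- libraries. Of 6 endothelial genes 5 were lower without overlap there, against 4.31% of all genes, and their part in the Podxl value was not tested. Synpo differed by -0.09 (SE 0.20).

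In spleen, levels of the members were low and their differences depended on single libraries. Wt1 was 0.1458, 0.09613 and 0.04025 CPM in WT and 1.25, 0.2204 and 0.08356 CPM in Ctcf+/- libraries, with 125 counts in Ctcf+/- library 1 and at most 16 in any other. Its log2 fold change of 2.49 (SE 1.06, edgeR adjusted p = 1) became 0.70 without that library. Synpo was 1.035, 1.598 and 1.449 CPM in WT and 3.45, 1.681 and 1.88 CPM in Ctcf+/- spleen, without overlap, as for 4.35% of all genes in this direction. Its log2 fold change was 0.78 (SE 0.36) with all libraries and 0.39 without Ctcf+/- library 1.

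Podxl was highest in another spleen library. It was 0.6708, 1.286 and 0.5534 CPM in WT and 0.72, 3.306 and 1.274 CPM in Ctcf+/- spleen, a log2 fold change of 1.07 (SE 0.62) that was 0.25 without Ctcf+/- library 2. That library held exocrine pancreas RNA, with 3 markers summing to 1140 CPM against 17.7 to 148.4 CPM in the other 5. Kidney RNA was present in all 3 Ctcf+/- spleen libraries: the 5 proximal tubule markers summed to 9.809, 20.22 and 20.13 CPM there and to 0.2817 to 0.6124 CPM in WT spleen. Nphs1 held 2, 9 and 2 counts in these Ctcf+/- libraries and 0, 4 and 2 in WT. The 3 hepatocyte genes summed to 37.33, 29.05 and 29.29 CPM in WT spleen and to at most 0.1102 CPM in Ctcf+/- spleen. The part of RNA of other organs in the spleen values was not tested.

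**Figure D5:**
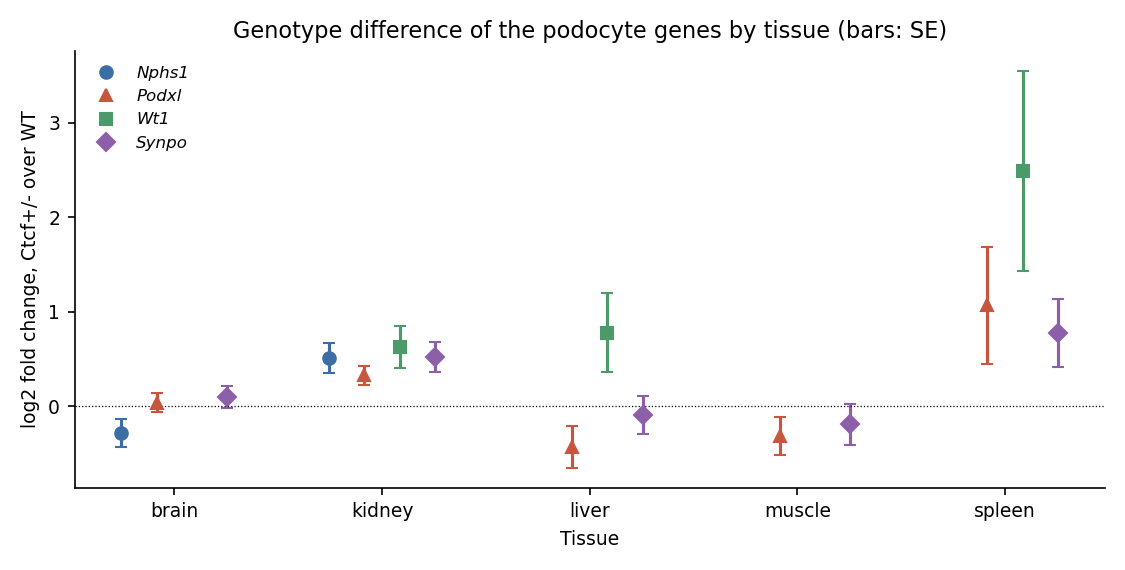
Fitted log2 fold change of Ctcf+/- over WT for each gene that passed the filter in a tissue, with its SE. The 4 kidney values lie above 0 with SEs of 0.10 to 0.22. The brain values have SEs of 0.10 to 0.15 and the spleen values SEs up to 1.06, and none passed the adjusted test.

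Whether the genotype difference varied between tissues was tested over all 30 libraries. The edgeR interaction test called 0 of the 4 members, where 0.758% of the 24262 genes tested were called. Adjusted p-values were 1 for Nphs1, 0.737 for Podxl, 0.566 for Wt1 and 0.857 for Synpo, and Podxl (0.0472) and Wt1 (0.0239) were under 0.05 before adjustment. The kidney differences were therefore not shown to be particular to kidney. Of the 52 further podocyte genes, edgeR fitted within each tissue under the filterByExpr filter and TMM, without a block, called 1 for genotype: Cd151, a tetraspanin partner of integrins in the basement membrane list, which fell in muscle from 76.56 ± 1.72 to 43.88 ± 1.48 CPM (SD, n = 3 each, log2 fold change -0.80, SE 0.08, edgeR adjusted p = 0.0334). The call held with DESeq2 (adjusted p = 1.8e-09), DESeq2 size factors (0.0332), both other filters (0.00682 and 0.0351), the fit of 30 libraries (0.000782) and the block (0.0152). It was lost with limma-voom (adjusted p = 0.0506), with total counts (0.0848) and when any 1 of the 6 muscle libraries was left out (0.103 to 0.36), while the log2 fold change ran from -0.83 to -0.77 over all these settings. In kidney its log2 fold change was -0.04, with 138.2 ± 2.89 CPM in WT and 134.7 ± 9.69 CPM in Ctcf+/- libraries (SD, n = 3 each).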

How the data were processed

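The authors deposited unscaled counts, with 1 table for each tissue; per the file headers these were fragments on exons of the Ensembl GRCm38.86 annotation, counted with featureCounts v1.5.0-p3. Strand, multi-mapping and multi-overlap options were not set there. The submitters' processing notes name STAR, FastQC and DESeq2 without versions. Each table held 48709 entries, and symbols were matched by gene identifier.

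The analysis used edgeR 4.0.16 in R 4.3.3. For genotype, the 6 libraries of a tissue were filtered with filterByExpr, scaled by TMM and tested by quasi-likelihood with Benjamini-Hochberg adjustment over all genes; a gene was called at an adjusted p under 0.05. Tissues were compared over the 15 WT libraries and the interaction over all 30. Log2 CPM used a prior count of 2. Scaling levels within a tissue, after the filter, was chosen with values seen. The fits were also run on simulated data, with outcomes not reported here. How small a difference they could call with 3 libraries per group is therefore not stated. Replicates were compared by chi-square per degree of freedom, which was 15.4 to 640 over 30 pairs, so none was merged. Labels do not say that replicates within a group came from separate mice, and p-values measure the spread between these libraries.

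Same-numbered libraries of the 2 genotypes correlated in their deviations at r of 0.209, 0.190 and 0.212 in kidney and 0.207, 0.383 and 0.537 in brain. Every pair of these tissues reached 0.190, and this was taken as pairing there. Single pairs of other tissues were as high, and the labels share only the numbers. The main fits left the pairing out, and the block was an alternative. Pooled correlations between members in kidney, planned with a permutation test, are not given because the genotype groups did not overlap. Alternatives were DESeq2 1.42.0, limma-voom (limma 3.58.1), other scalings and filters, a 30-library fit, the replicate block and leaving out libraries.

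The members and lists were chosen with earlier results of these data known. Named are the 4 members in every tissue, their neighbours within 10 kb, the 3 genes most alike in pattern, and of each list the most abundant in WT kidney, the most kidney-biased, that of smallest genotype p in kidney and any called gene; others are stated as named after their values were seen. Some genes that this rule names are not reported here.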

Additional observations from a re-analysis of the deposited data

Results flagged for a closer look

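The genotype difference of Cd151 varied between tissues, with an adjusted p of 0.0155 in the edgeR interaction test over all 30 libraries. Its log2 fold change of Ctcf+/- over WT was -0.80 in muscle, -0.04 in kidney, 0.07 in brain, -0.11 in liver and -0.10 in spleen. The 3 Ctcf+/- muscle libraries were below all 3 WT muscle libraries, and the groups overlapped in the other 4 tissues.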

How the results depend on the processing

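The number of members called for genotype was 0 in each tissue under all 70 alternatives, and the 4 kidney differences stayed above 0 in all 56 values recomputed for them (0.23 to 0.77 on the log2 scale, lowest adjusted p 0.0776, for Synpo with the replicate block). Of 658 recomputed values, 632 were classed as unchanged. A fold change had to keep its direction and side of the threshold for this, and an interaction p-value its side. Counts of genes had only to be equal or similar, so a count could move within this class. Podxl became called between WT kidney and muscle with total counts (1.51), making 4 members called there. Leaving out 1 library turned directions of differences that were not called: Podxl in brain ranged from -0.06 (without WT library 2) to 0.12, Synpo in liver from -0.26 to 0.09 (without WT library 2) and Synpo in muscle from -0.38 to 0.03 (without WT library 1). Of the further podocyte genes, 1, the family relative Synpo2, was called in brain with DESeq2, with a filter of 1 count and with the replicate block. The block called 0.115% of all brain genes. In kidney 2 were called higher with DESeq2, Ptpro and the family relative Podxl2, as were 0.586% of all genes. In muscle 0 were called with total counts, with limma-voom and when any 1 library was left out. In spleen 5 were called in the fit of all 30 libraries and 0 in every other setting, where the lowest adjusted p was 0.149 (DESeq2). The share of all genes called is not given for that fit, nor for DESeq2 and the filter of 1 count in brain. Those counts thus cannot be set against it. Leaving out 1 library gave 11 to 18 further genes higher without overlap in kidney (18 without Ctcf+/- library 1, 17 without Ctcf+/- library 3), 5 to 14 in spleen (14 without Ctcf+/- library 3, 12 without Ctcf+/- library 2) and 1 to 2 members in spleen. The share of all genes so separated rose as well, to 9.51% to 13.4% in kidney, from 6.15% with every library. In spleen it rose to 5.87% to 13.6%, from 4.35%. It was 11% and 13.4% without kidney Ctcf+/- libraries 1 and 3. Without spleen Ctcf+/- libraries 3 and 2 it was 8.51% and 13.6%. The counts of further genes were added after the data were seen. The causes of these changes were not tested. Over all genes, the replicate block moved the number called from 4 to 21 in kidney and from 3 to 22 in brain. Where the numbers did not count as pairing, liver went from 3 to 7, muscle from 4 to 118 and spleen from 45 to 0. Same-numbered libraries there correlated at r of 0.051 to 0.277, 0.083 to 0.271 and -0.472 to 0.475. Among the genes named here, the block changed the call of Ctcf in kidney and Synpo2 in brain. Depth limits Nphs1 in liver, muscle and spleen and Wt1 in brain, muscle and spleen, with at most 16 counts per library apart from 125 in Ctcf+/- spleen library 1.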
